A study of Mus musculus with 6 samples.

Results

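Basement membrane and extracellular matrix genes were examined in primary BMVECs, mouse brain microvascular endothelial cells that form the inner wall of brain capillaries, with and without the cytokine IL-36β. The set was a list of 37 of the 54532 genes in the expression table, taken by gene symbol: 11 collagen genes, 8 laminin and nidogen genes, and 18 glycoprotein and proteoglycan genes. The list was chosen with earlier results of these data known, so its shares beside those of all genes are not a test of the set. All 37 symbols were found. BMVECs of wild-type C57BL/6J mice were grown out of digested brain vessel fragments under puromycin selection, on plates coated with collagen IV and fibronectin, until confluent. One group was left untreated (3 libraries) and the other received processed DEVD mIL-36β, the mouse cytokine, for 24 h at 100 ng/ml (3 libraries). All 6 libraries thus came from cells on a matrix-coated surface. Whether libraries of the same group come from separate mice or cultures is not stated, so p-values here describe only the spread among libraries, and that spread may be technical. Libraries A0, B0 and D0 are untreated 1 to 3 and A24, D24 and E24 are IL-36β 1 to 3. If these numbers are hours, IL-36β and time in culture cannot be told apart.

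Endothelial cells rest on a basement membrane, a thin sheet in which a collagen IV network and a laminin network are linked by nidogens and by the heparan sulfate proteoglycans perlecan and agrin. In brain capillaries this sheet lies between endothelium, pericytes and astrocyte end-feet and is part of the blood-brain barrier. Around it, fibronectin, fibulins, fibrillin and matricellular proteins such as thrombospondins, SPARC and tenascin-C shape adhesion and vessel growth.

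Levels are given as FPKM, reads scaled for gene length and library depth, as the authors deposited them; their scaling divides each library by a size factor. The libraries held 15180389 to 19544689 reads assigned to genes. Endothelial markers were high in all 6 libraries, with Cdh5 (VE-cadherin) at 865 to 1126 FPKM, and all 10 of the list passed the filter on low values. The 6 fibroblast markers summed to 0.724 to 1.54 FPKM in untreated and 0.929 to 3.56 FPKM with IL-36β, and the 9 pericyte markers to 5.96 to 6.98 and 4.69 to 7.74 FPKM. The 6 smooth muscle markers summed to 488 to 1461 and 453 to 900.4 FPKM, mostly from Acta2. Astrocyte, microglia and neuron or oligodendrocyte lists each summed to at most 1.78, 0.356 and 0.385 FPKM in any library. In bulk RNA, fewer cells of a type and less RNA per cell cannot be told apart.

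The transcripts of the basement membrane core, collagen IV α1 and α2 and the laminin α4, β1 and γ1 chains, overlapped between the groups. Their fitted folds lay between 0.976 and 1.17. The 95% limma intervals reached from 0.745 to 1.57, so equality is not shown. The linker nidogen-1 was lower with IL-36β in every library, at 209 ± 4.65 FPKM without and 140 ± 9.22 FPKM with IL-36β (SD, n = 3 per group). Thrombospondin-1, fibulin-5 and the collagens Col5a2, Col8a1 and Col12a1 also had all 3 IL-36β libraries below all 3 untreated ones. None of these differences passed the main test, which was limma on log2(FPKM + 0.5) with Benjamini-Hochberg adjustment over 12618 genes and a threshold of 0.05. That test called 0.182% of all genes tested (23 genes; 0.166% higher and 0.0159% lower) and 0 of the 32 members tested.

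The other 5 members, Col6a1, Col6a2, Eln, Mmrn1 and Postn, did not reach 0.5 FPKM in 3 libraries and were not tested. The 32 that were tested had at least 0.5 FPKM in every library. At an unadjusted p under 0.05 limma gave 7 members, all lower with IL-36β. Over all genes tested 10.4% reached that level, 4.41% lower and 5.96% higher. The 2 groups did not overlap in 6 members, all lower, beside 7.24% of all genes tested that were lower and 8.95% that were higher without overlap. DESeq2 on the reads recovered from FPKM called these same 6 members lower; it called 2.1% of its genes, 1.29% higher and 0.808% lower. On the same reads edgeR called 0 members, with 8 at an unadjusted p under 0.05, and 0.293% of all genes, 0.262% higher and 0.0317% lower. All 6 had fitted folds below 1 in the main fit and in every alternative, and within both library sets described further on. For groups without overlap that direction is fixed in advance in any fit or subset of the same FPKM, so it adds no support. Only the settings on another scale (TPM, quantile, edgeR and DESeq2) could have differed. Fitted fold changes were above 1 in 14 members and below 1 in 18 (49.5% of all genes tested lay below 1), with a median log2 fold change of -0.08 beside 0.0023 over all genes tested. That balance depended on the fit: 28 of the 32 lay below 1 with the library letter as a block, which compares only A0 with A24 and D0 with D24, and 24 of 32 without IL-36β 3.

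**Figure D1:**
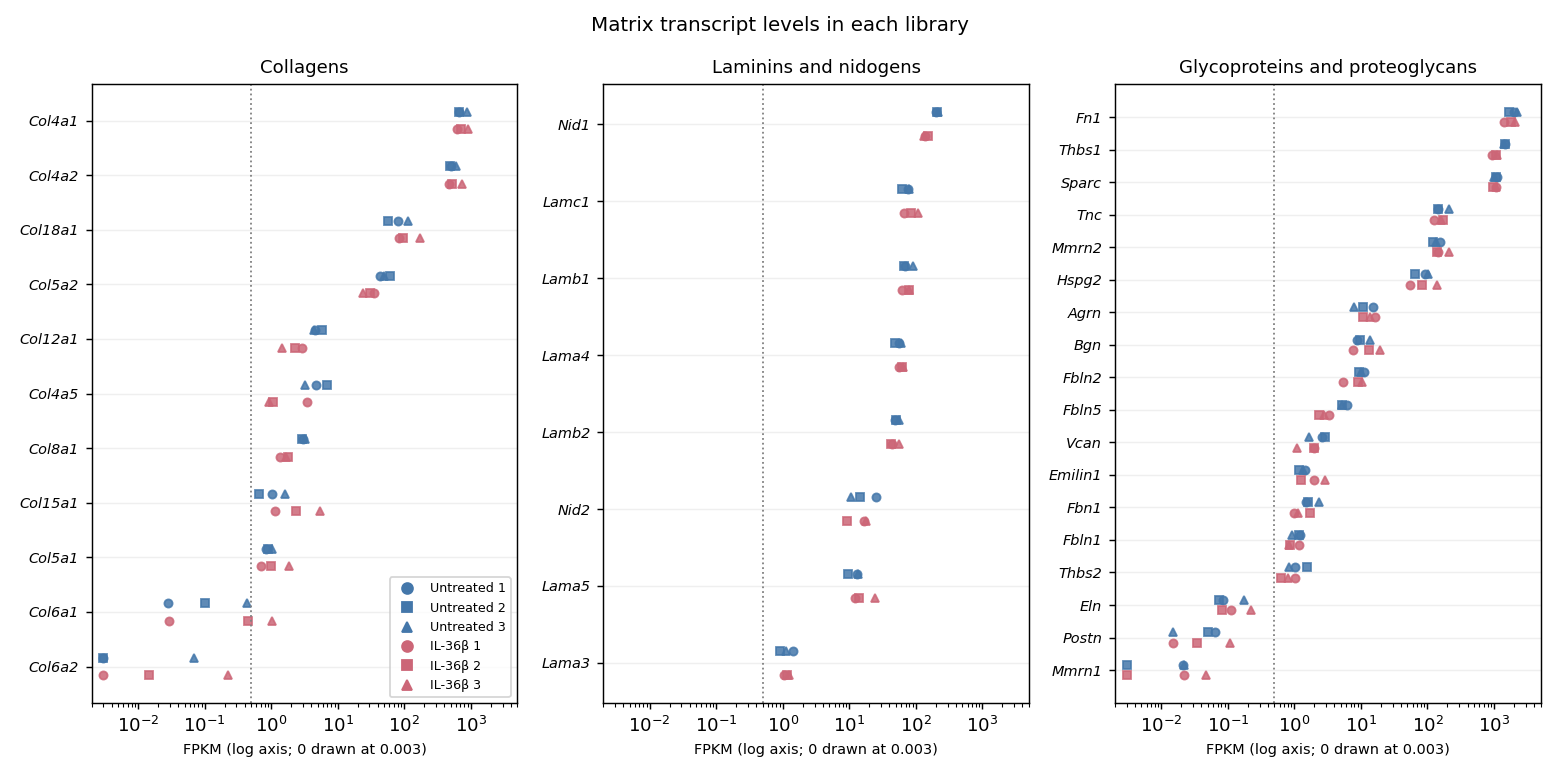
FPKM of each of the 37 members in each of the 6 libraries, on a log axis, with untreated libraries in blue above and IL-36β libraries in red below each line; the dotted line marks 0.5 FPKM and zeros are drawn at 0.003. Fn1, Thbs1, Sparc, Col4a1 and Col4a2 are the highest in the set, and Col6a2, Eln, Postn and Mmrn1 lie left of the dotted line in every library.

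The 5 most abundant members held 82.3 to 84.5% of the summed FPKM of the set in each library. Fn1, which encodes fibronectin, ranked 6 among all genes by mean FPKM, Thbs1 ranked 15, Sparc 20, Col4a1 33 and Col4a2 50. At the other end, Postn (periostin, 2 to 17 reads per library), Mmrn1 (multimerin-1, 0 to 5 reads) and Eln (elastin, 11 to 33 reads) were near the detection limit. The summed FPKM of the 37 members was 6842, 6279 and 7285 in untreated 1 to 3 and 5389, 6069 and 7117 in IL-36β 1 to 3. The groups overlapped in this sum, and untreated 3 was highest.

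Collagen IV forms the network of the basement membrane as heterotrimers, most of them of α1 and α2 chains. Col4a1 (chromosome 8, 11198423 to 11312826, minus strand, GRCm38) stood at 674, 655 and 872 FPKM in untreated 1 to 3 and at 621, 706 and 903 FPKM in IL-36β 1 to 3. The groups overlapped fully, and replicate 3 was the highest in each. The fold of IL-36β over untreated was 1.01 (95% interval 0.745 to 1.37, limma adjusted p = 0.986); intervals after later folds are of the same kind. Col4a2 (chromosome 8, 11312805 to 11449287, plus strand) stood at 513, 481 and 597 FPKM untreated and at 472, 525 and 726 FPKM with IL-36β, and the fold was 1.07 (0.792 to 1.44, limma adjusted p = 0.872). Equality is not shown by either interval. The ratio of Col4a2 to Col4a1 lay between 0.685 and 0.804 in the 6 libraries, while the level of each gene varied more widely.

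Col4a1 and Col4a2 lie head to head, and their start regions are shown because they overlap. In RefSeq (GRCm38.p6) the transcription starts are 21 bases apart on opposite strands, and windows from 250 bases before to 50 bases after each start share 78 bases, printed in capitals and reading as reverse complements of each other. The windows are chr8:11312777-11313076 on the minus strand for Col4a1 and chr8:11312555-11312854 on the plus strand for Col4a2, each printed 5′ to 3′.
Col4a1: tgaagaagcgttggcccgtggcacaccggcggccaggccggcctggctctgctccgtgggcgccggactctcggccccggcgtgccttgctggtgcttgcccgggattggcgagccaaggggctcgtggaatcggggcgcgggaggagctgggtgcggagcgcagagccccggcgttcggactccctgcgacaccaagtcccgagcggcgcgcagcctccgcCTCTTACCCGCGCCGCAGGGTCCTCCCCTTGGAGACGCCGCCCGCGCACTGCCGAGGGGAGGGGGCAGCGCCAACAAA
Col4a2: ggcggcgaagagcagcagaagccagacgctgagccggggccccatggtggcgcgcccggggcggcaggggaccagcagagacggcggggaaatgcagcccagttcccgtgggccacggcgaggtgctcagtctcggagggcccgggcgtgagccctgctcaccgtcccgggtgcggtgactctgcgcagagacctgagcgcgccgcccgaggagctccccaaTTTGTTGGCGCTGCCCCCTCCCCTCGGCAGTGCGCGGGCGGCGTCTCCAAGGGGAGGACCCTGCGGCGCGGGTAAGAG
The annotated exons of the pair (GENCODE M21) also share 22 bases on opposite strands. No source used here gives the strand setting of the read counting, so reads from those 22 bases cannot be assigned to either gene.

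Col4a5, which encodes the α5 chain of a minor collagen IV network, had the fitted fold farthest below 1 in the set, but its groups overlapped. It stood at 4.69, 6.82 and 3.18 FPKM in untreated 1 to 3 and at 3.48, 1.05 and 0.941 FPKM in IL-36β 1 to 3. The library IL-36β 1 lay above untreated 3, and the other 2 IL-36β libraries lay below all the rest. The fold was 0.399 (0.202 to 0.788, limma adjusted p = 0.360).

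A further 3 collagens were lower in every IL-36β library. Col5a2, a chain of the fibril-regulating collagen V (chromosome 1, 45374321 to 45503282, minus strand), stood at 43.8, 62.0 and 50.0 FPKM untreated and at 34.9, 30.4 and 24.0 FPKM with IL-36β. Its fold was 0.577 (0.435 to 0.765, limma adjusted p = 0.184, DESeq2 adjusted p = 0.000811). Col5a1, the partner chain, was much less abundant at 0.911 ± 0.0932 and 1.19 ± 0.615 FPKM, with overlapping groups. Col8a1, a short-chain collagen of vessel walls (chromosome 16, 57624258 to 57754737, minus strand), stood at 2.97, 2.86 and 3.17 FPKM untreated and at 1.37, 1.80 and 1.67 FPKM with IL-36β, from 166 to 454 reads per library. The untreated libraries lay close together and well above the IL-36β ones, a fold of 0.601 (0.488 to 0.741, limma adjusted p = 0.112, edgeR 0.0523, DESeq2 6.32e-05). Col8a1 was the only member of the 32 called by limma with the library set as a term (0.808% of all genes tested were called there, 0.674% higher and 0.135% lower), at a fold of 0.577 (0.475 to 0.701, limma adjusted p = 0.0435). Col12a1, a fibril-associated collagen (chromosome 9, 79598991 to 79718831, minus strand), stood at 4.63, 5.74 and 4.34 FPKM untreated and at 2.92, 2.29 and 1.46 FPKM with IL-36β. Its fold was 0.494 (0.349 to 0.699, limma adjusted p = 0.172, DESeq2 adjusted p = 0.000105).

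Col18a1 and Col15a1, the basement membrane collagens whose C-terminal fragments are endostatin and restin, did not share that direction. Col18a1 stood at 80.9, 57.5 and 114.5 FPKM untreated and at 83.3, 94.5 and 173.7 FPKM with IL-36β, and the fold was 1.37 (0.802 to 2.33, limma adjusted p = 0.653). Col15a1 was low, at 1.03, 0.645 and 1.59 FPKM and at 1.14, 2.38 and 5.42 FPKM, and the fold was 1.97 (0.947 to 4.09, limma adjusted p = 0.513). In both genes replicate 3 was highest within its group and the groups overlapped. Collagen VI was scarce: Col6a1 had 2 to 81 reads per library and Col6a2 0 to 34. Of the 9 collagens tested, 4 had an unadjusted p under 0.05 in limma, all lower, and of these Col4a5 overlapped between groups. Over all genes tested 10.4% reached that level, 4.41% lower. The median log2 fold change over the 9 was 0.014.

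Laminins are α, β and γ heterotrimers, and α4 and α5 are the endothelial α chains. By level per length, Lama4 was the main α chain, with 71.3 to 82.3% of the summed FPKM of Lama3, Lama4 and Lama5. Lama4 (chromosome 10, 38965515 to 39110188, plus strand) stood at 55.0, 49.0 and 59.4 FPKM untreated and at 56.0, 61.4 and 64.2 FPKM with IL-36β, and the fold was 1.11 (0.936 to 1.32, limma adjusted p = 0.636). Lama5 stood at 13.0, 9.63 and 13.3 FPKM and at 12, 13.9 and 24.6 FPKM, and the fold was 1.34 (0.876 to 2.04, limma adjusted p = 0.602). The library IL-36β 3 alone stood apart for Lama5, and there the ratio of Lama4 to Lama5 was 2.61, beside 4.23 to 5.09 in the other 5 libraries. Lama3 was low, at 1.15 ± 0.256 and 1.14 ± 0.103 FPKM, with a fold of 1.00 (0.768 to 1.30).

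The β and γ chains overlapped between groups as well. Lamb1 stood at 69.3, 67.1 and 89.6 FPKM untreated and at 62.2, 78.8 and 78.8 FPKM with IL-36β, and the fold was 0.976 (0.766 to 1.24, limma adjusted p = 0.952). Lamb2 was 51.5 ± 3.42 and 47.3 ± 7.71 FPKM, a fold of 0.914 (0.742 to 1.13). Lamc1, the common γ chain, stood at 76.3, 62.1 and 79.3 FPKM and at 66.5, 84.2 and 107.3 FPKM, and the fold was 1.17 (0.866 to 1.57, limma adjusted p = 0.694). Lamb1 made up 56.9 to 65.3% of the summed FPKM of Lamb1 and Lamb2, with no separation of the groups.

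Nid1 encodes nidogen-1, which binds the laminin γ1 chain and collagen IV and so joins both networks (chromosome 13, 13437551 to 13512269, plus strand). It stood at 203.5, 210.9 and 212.1 FPKM in untreated 1 to 3 and at 136, 150.4 and 133 FPKM in IL-36β 1 to 3, from 14707 to 29667 reads per library. The 3 untreated libraries lay within a narrow band above all IL-36β libraries. The fold was 0.670 (0.574 to 0.782, limma adjusted p = 0.106, edgeR adjusted p = 0.108, DESeq2 adjusted p = 1.88e-05). With the library set as a term the fold was 0.663 (0.569 to 0.774, limma adjusted p = 0.0524). Among libraries lettered A and B it was 0.660, and among D and E 0.667. Nid2, the second nidogen, was lower in level and variable, at 25.2, 14.6 and 10.5 FPKM untreated and at 16.9, 9.27 and 18.1 FPKM with IL-36β. Its groups overlapped (fold 0.906, 0.514 to 1.6; limma adjusted p = 0.904), and its exons share 437 bases with the opposite-strand gene Rtraf, which reached 49.9 FPKM, so its value is uncertain.

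Set against Lamc1 and Col4a1, which encode its binding partners, the Nid1 transcript still separated the groups, as it did alone. The ratio of Nid1 to Lamc1 was 2.67, 3.40 and 2.67 in untreated 1 to 3 and 2.1, 1.79 and 1.24 in IL-36β 1 to 3. The ratio of Nid1 to Col4a1 was 0.302, 0.322 and 0.243 in untreated and 0.220, 0.213 and 0.147 in IL-36β libraries. Neither ratio overlapped between groups, but Nid1 itself did not overlap either, so the ratios are not a separate result. Both are given without a test, since the genes were chosen with earlier results known. The ratio of Nid1 to Nid2 did overlap, at 8.09, 14.4 and 20.2 in untreated 1 to 3 and 8.08, 16.2 and 7.35 in IL-36β 1 to 3. Of the 8 laminin and nidogen genes, Nid1 was the only one with an unadjusted p under 0.05 in limma, beside 10.4% of all genes tested. The median log2 fold change of the 8 was -0.017.

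**Figure D2:**
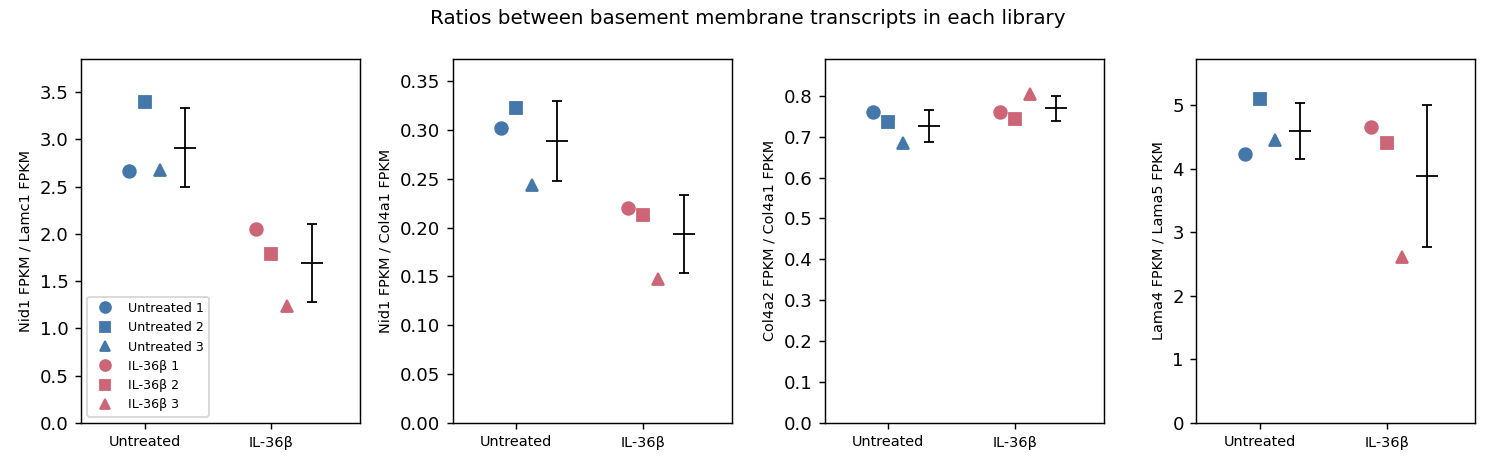
Ratios of FPKM in each library for 4 pairs of basement membrane genes, untreated in blue and IL-36β in red, with the mean and SD of 3 libraries in black. The ratios of Nid1 to Lamc1 and to Col4a1 lie lower in all 3 IL-36β libraries (1.24 to 2.1 against 2.67 to 3.40 for Nid1 to Lamc1), as Nid1 alone does. Col4a2 to Col4a1 stays between 0.685 and 0.804.

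Fibronectin is the most abundant adhesive glycoprotein of the set by transcript level. Fn1 (chromosome 1, 71585520 to 71653200, minus strand) stood at 2027, 1656 and 2239 FPKM untreated and at 1391, 1784 and 2041 FPKM with IL-36β. The ranges overlapped, and the fold was 0.877 (0.631 to 1.22, limma adjusted p = 0.768). Sparc, a collagen-binding matricellular protein, was at 1055 ± 49.5 and 1049 ± 65.4 FPKM, and the fold was 0.994 (0.807 to 1.22, limma adjusted p = 0.987). Tnc, tenascin-C, stood at 146, 144 and 209 FPKM untreated and at 126, 169 and 161 FPKM with IL-36β, a fold of 0.922 (0.688 to 1.24).

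Thbs1 encodes thrombospondin-1, an anti-angiogenic protein that binds CD36 and CD47 and can activate TGF-β (chromosome 2, 118111876 to 118127133, plus strand). It stood at 1463, 1444 and 1391 FPKM in untreated 1 to 3 and at 933, 1072 and 1095 FPKM in IL-36β 1 to 3, from 87887 to 177628 reads per library. The groups were separated by more than the range within either. The fold was 0.720 (0.578 to 0.895, limma adjusted p = 0.302, DESeq2 adjusted p = 0.00272), and it was 0.642 among libraries A and B and 0.779 among D and E. Thbs2 was far lower, at 1.14 ± 0.370 and 0.819 ± 0.194 FPKM, with overlapping groups.

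Fbln5, which encodes fibulin-5, an integrin-binding protein of elastic fibres (chromosome 12, 101746565 to 101819055, minus strand), stood at 6.27, 5.11 and 5.18 FPKM untreated and at 3.34, 2.35 and 2.81 FPKM with IL-36β, from 267 to 715 reads. Each IL-36β library lay below each untreated one. The fold was 0.552 (0.436 to 0.698, limma adjusted p = 0.109, edgeR 0.0520, DESeq2 2.22e-05), and 0.623 and 0.541 within the library sets. Other elastic fibre genes overlapped between groups. Fbn1 (fibrillin-1) was 1.82 ± 0.473 and 1.28 ± 0.398 FPKM, Fbln1 1.09 ± 0.163 and 0.958 ± 0.193 FPKM, and Fbln2 10.1 ± 0.927 and 8.35 ± 2.60 FPKM. Emilin1, an elastin-associated glycoprotein, was 1.32 ± 0.123 and 2.06 ± 0.839 FPKM, and the fold was 1.35 (0.919 to 2.0, limma adjusted p = 0.574).

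**Figure D3:**
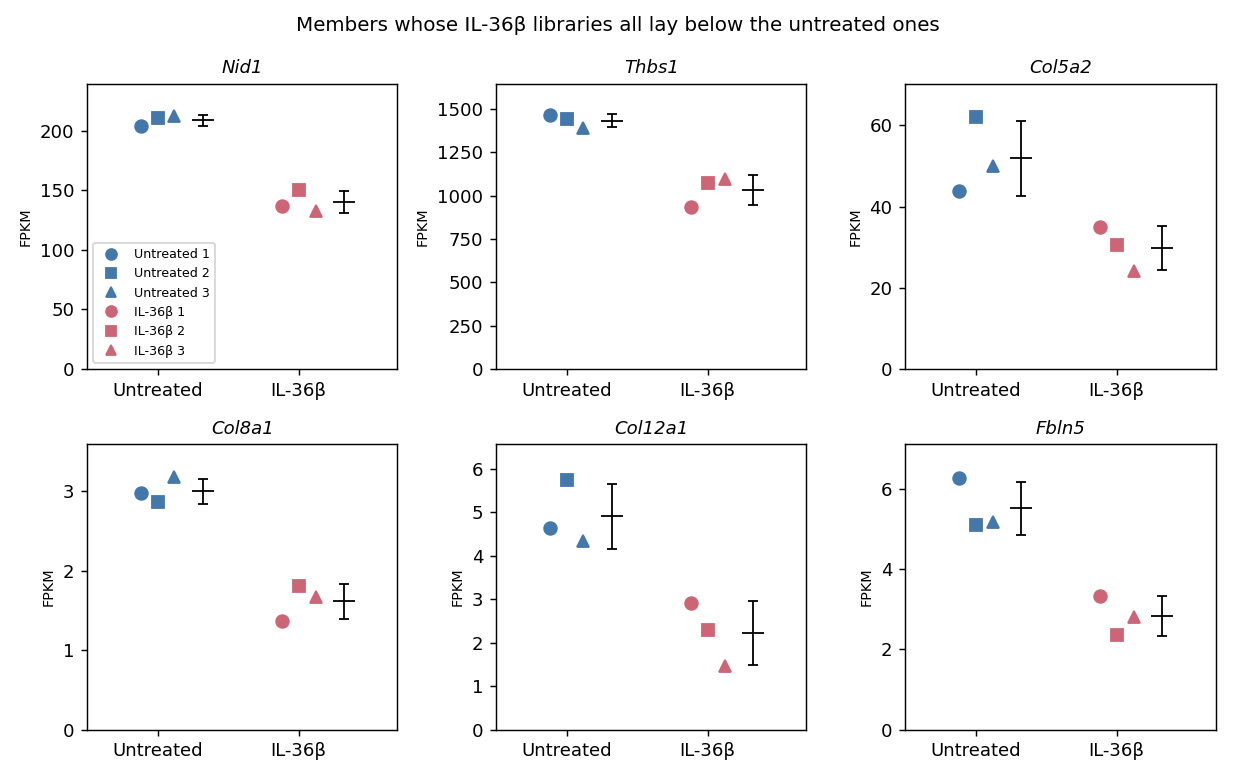
FPKM of Nid1, Thbs1, Col5a2, Col8a1, Col12a1 and Fbln5 in each library, on axes from 0, with the mean and SD of 3 libraries in black. In each panel the 3 IL-36β libraries (red) lie below the 3 untreated ones (blue), for example 133 to 150.4 against 203.5 to 212.1 FPKM for Nid1.

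The proteoglycans did not separate the groups. Hspg2, which encodes perlecan, stood at 91.5, 63.9 and 101.7 FPKM untreated and at 54.9, 82.3 and 140.6 FPKM with IL-36β, so IL-36β held both the lowest and the highest value, with a fold of 1.02 (0.596 to 1.76, limma adjusted p = 0.981). Agrn, agrin, stood at 15.1, 10.9 and 7.89 FPKM and at 16.3, 10.6 and 13.8 FPKM, a fold of 1.21 (0.817 to 1.79). Bgn (biglycan) was 10.6 ± 2.61 and 13.3 ± 5.83 FPKM, and Vcan (versican) 2.39 ± 0.670 and 1.69 ± 0.503 FPKM. Mmrn2, an endothelial multimerin that binds CD93, stood at 153, 119.6 and 134 FPKM and at 145, 139.7 and 213 FPKM, and the fold was 1.21 (0.898 to 1.62, limma adjusted p = 0.625). Of the 15 glycoproteins and proteoglycans tested, Thbs1 and Fbln5 had an unadjusted p under 0.05 in limma, beside 10.4% of all genes tested. Fitted folds were below 1 in 10 of the 15, beside 49.5% of all genes tested, and the median log2 fold change was -0.13.

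**Figure D4:**
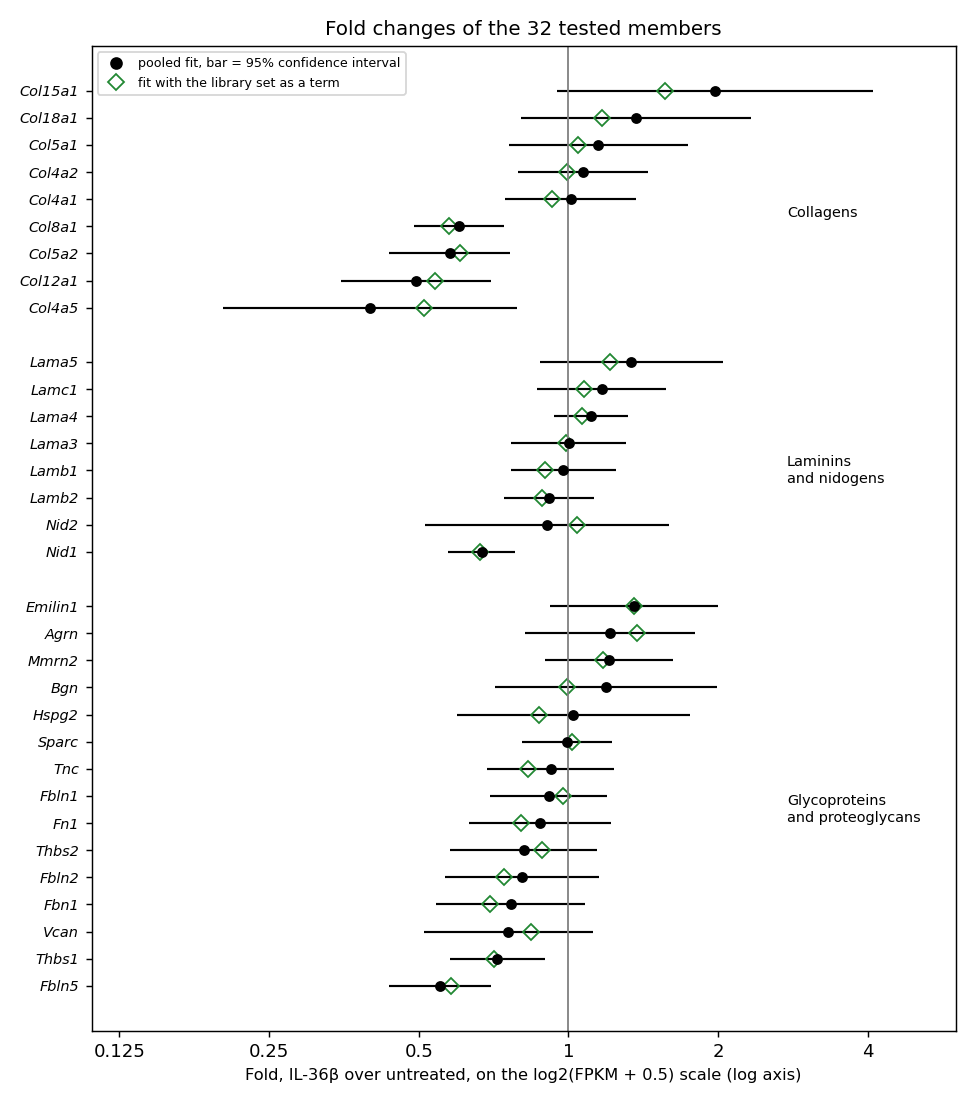
Fold of IL-36β over untreated for each of the 32 tested members on a log axis, from limma on log2(FPKM + 0.5): black points and bars are the pooled fit and its 95% confidence interval, green diamonds the fit with the library set as a term. Intervals of Col4a5, Col5a2, Col8a1, Col12a1, Nid1, Thbs1 and Fbln5 lie below 1; they are not adjusted for the number of genes.

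The libraries also differed by the letter in their name. One set holds A and B, which are untreated 1, untreated 2 and IL-36β 1, and the other holds D and E. Between these sets limma with group as a term called 1.74% of all genes tested (1.24% lower and 0.507% higher in D and E) and 0 of the 32 members; what the letters stand for is not given. The members with the smallest adjusted p for this difference were Col4a5, lower in D and E at a fold of 0.473 (limma adjusted p = 0.0622), and Tnc, higher at 1.37 (limma adjusted p = 0.0637). They were named after their values were seen. D and E hold 2 of the 3 IL-36β libraries, and with the set as a term the fold of Col4a5 was 0.513 (0.366 to 0.718, limma adjusted p = 0.119). The library IL-36β 3 was the highest of the 6 for 13 of the 32 members, among them Col4a1, Col4a2, Col18a1, Lama5 and Hspg2, beside 25.7% of all genes tested. Without that library the fold of Hspg2 was the lowest of its leave-one-out values, 0.801, and that of Col15a1 was 1.41.

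Other genes of the matrix pathway were taken from 5 lists, also chosen with earlier results of these data known. Of 27 matrix receptor genes 25 were tested and limma called none in the pooled fit, with 4 higher and 1 lower at an unadjusted p under 0.05. Over all genes tested 5.96% were higher and 4.41% lower at that level. Sdc4, syndecan-4, a heparan sulfate co-receptor for fibronectin, stood at 25.9, 27.4 and 23.7 FPKM untreated and at 40.5, 42.0 and 39.7 FPKM with IL-36β. The groups were far apart relative to their spread, a fold of 1.58 (1.36 to 1.82, limma adjusted p = 0.0569), and it passed in edgeR (adjusted p = 0.0360), in DESeq2 (3.07e-05) and in limma with the library set as a term (fold 1.61, adjusted p = 0.0308). The integrin α subunits Itga2, of a collagen receptor, and Itgav, of receptors for RGD ligands, were also higher without overlap. Their folds were 1.35 and 1.22 (limma adjusted p = 0.405 and 0.425). Itgb3, a β partner of Itgav, was higher with overlap at 1.4 (limma adjusted p = 0.454). Itga8, an RGD-binding integrin chain, was lower without overlap, at 0.696 (limma adjusted p = 0.231, DESeq2 adjusted p = 0.0212). These 4 integrin genes were chosen after their values were seen.

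Of 25 genes for matrix synthesis and crosslinking 24 were tested and limma called none with IL-36β. At an unadjusted p under 0.05 in limma Tgm2 was higher and P3h2 lower, beside 5.96% and 4.41% of all genes tested. In edgeR and DESeq2 none was called either. The most abundant were Serpinh1, the collagen chaperone HSP47, at 334 ± 61.6 and 366 ± 63.6 FPKM, and P4hb, a subunit of collagen prolyl hydroxylase, at 253 ± 10.7 and 256 ± 11.3 FPKM. In this list 5 genes differed between the library sets, all lower in D and E: Lox, P4ha1, P4ha2, Plod2 and Loxl2. They were named, like Tgm2 and P3h2, after their values were seen. Among all genes tested 1.74% differed between the sets, 1.24% lower and 0.507% higher in D and E. Lox, lysyl oxidase, stood at 41.2, 56.3 and 8.0 FPKM untreated and at 31.2, 6.56 and 4.89 FPKM with IL-36β. Every library lettered D or E lay below every A or B library for Lox, a fold of 0.184 between the sets (limma adjusted p = 0.00191). In the other 4 lists Ddr1, Col11a1 and Srpx2 were also called lower in D and E, and Itga5, Ddr2 and Lama1 higher, at folds of 2.1, 1.78 and 2.98 (limma adjusted p = 0.0440, 0.0161 and 0.0103).

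Of 21 other basement membrane genes 6 were tested, with none at an unadjusted p under 0.05 in limma and none called by limma, edgeR or DESeq2. The most abundant were Vwa1, at 107 ± 18.8 and 153 ± 58.3 FPKM, and Ntn4, netrin-4, at 86.3 ± 7.86 and 74.1 ± 8.04 FPKM. Of 12 other collagens 4 were tested, with none at an unadjusted p under 0.05 and none called by any of these tools. The fibroblast collagens were near 0, with Col1a1 at 0.0491 to 1.22 FPKM. Col5a3 was 0.978 ± 0.171 and 1.37 ± 0.399 FPKM, and Col11a1 2.94 ± 2.32 and 0.973 ± 1.16 FPKM. Col11a1 followed the library set, with 2.32 to 4.84 FPKM in A and B against 0.293 to 0.357 FPKM in D and E, and its fold with IL-36β was 0.458 pooled and 0.749 with the set as a term. Of 31 other matrix proteins 15 were tested, and limma, edgeR and DESeq2 called none. At an unadjusted p under 0.05 in limma Spp1 was higher and Efemp1 and Vwf lower, beside 5.96% and 4.41% of all genes tested. Igfbp7, an abundant endothelial matrix protein, was 654 ± 30.9 and 878 ± 197 FPKM, higher without overlap at a fold of 1.32 (limma adjusted p = 0.486), and Ecm1 was 249.6 ± 50.3 and 203 ± 48.6 FPKM.

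Among 6 smooth muscle genes, Myh11 and Cnn1 were lower in every IL-36β library, as the 6 lower members were. Myh11, smooth muscle myosin, stood at 6.54, 11.6 and 6.02 FPKM untreated and at 4.60, 3.90 and 2.1 FPKM with IL-36β. Cnn1, calponin, stood at 23.5, 37.9 and 40.6 FPKM and at 19.3, 21.7 and 9.59 FPKM. Neither overlapped between groups (limma adjusted p = 0.315 and 0.360), and DESeq2 called both lower. Among all genes tested, 7.24% were lower and 8.95% higher without overlap, and DESeq2 called 0.808% of its genes lower. Of the whole list of 6, these were lower and Smtn higher without overlap, and Acta2, Tagln and Mylk overlapped. Acta2 stood at 378, 675 and 1323 FPKM and at 340, 772 and 498 FPKM. The part of cells with these genes in the lower matrix transcripts was not tested.

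Start regions of Nid1, Col8a1 and Fbln5, which were lower without overlap, were read from RefSeq (GRCm38.p6). For Thbs1, Col5a2 and Col12a1, also lower without overlap, no start region was available. The windows hold 250 bases before and 50 after the start, 5′ to 3′, and capitals mark the GC box GGGCGG on either strand. They are chr13:13437352-13437651 on the plus strand for Nid1, chr16:57754688-57754987 on the minus strand for Col8a1 and chr12:101819070-101819369 on the minus strand for the upstream start of Fbln5.
Nid1: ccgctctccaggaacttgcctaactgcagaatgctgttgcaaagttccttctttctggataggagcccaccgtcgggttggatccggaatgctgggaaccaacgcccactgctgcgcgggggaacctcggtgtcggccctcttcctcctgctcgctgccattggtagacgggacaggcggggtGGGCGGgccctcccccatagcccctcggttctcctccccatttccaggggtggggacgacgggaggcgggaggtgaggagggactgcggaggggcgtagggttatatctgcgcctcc
Col8a1: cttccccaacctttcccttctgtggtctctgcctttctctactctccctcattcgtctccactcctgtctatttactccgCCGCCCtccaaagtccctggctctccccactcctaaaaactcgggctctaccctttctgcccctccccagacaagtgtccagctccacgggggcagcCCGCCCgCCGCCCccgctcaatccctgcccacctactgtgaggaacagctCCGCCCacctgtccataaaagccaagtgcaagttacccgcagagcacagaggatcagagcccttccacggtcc
Fbln5: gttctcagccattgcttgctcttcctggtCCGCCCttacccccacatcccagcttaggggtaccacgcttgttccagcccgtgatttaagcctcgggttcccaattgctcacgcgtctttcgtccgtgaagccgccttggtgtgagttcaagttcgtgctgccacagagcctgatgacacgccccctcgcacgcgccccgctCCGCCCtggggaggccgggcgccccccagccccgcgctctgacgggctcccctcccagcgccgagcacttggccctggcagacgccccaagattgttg
The GC box occurred once in the Nid1 window, 4 times in that of Col8a1 and 2 times in this window of Fbln5, and not in the window of the downstream Fbln5 start. Of 27 members with a promoter in the table, 19 held at least 1 GC box in some window, beside 35.7% of all 32851 windows of this length. The AP-1 motif TGANTCA, searched on both strands, was in a window of 1 member, Col6a1, beside 7.81% of all windows, and the NF-κB motif, by its name alone, in windows of 4 members, beside 8.46%. Members can have several windows, so the member counts and the shares of windows are not on the same base. A match is a description of the letters and not a binding site.

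The authors' deposited table of 660 genes lists 3 of the 37 members, each lower with IL-36β: Nid1 (log2 fold change -0.39, p = 0.00767), Col8a1 (-0.60, p = 0.0184) and Thbs1 (-0.43, p = 0.0372). The adjusted p in the authors' deposited table is 0.999 for each. The untreated and IL-36β group means in the authors' deposited table differ by over 1% from the means of the 3 libraries in 573 and 594 of its 660 genes. For Nid1 the untreated mean there is 21761 normalized counts, against 24367 over the 3 untreated libraries. Which libraries entered the authors' fit is not stated, so it may not compare the same 3 against 3. The authors' deposited table holds 660 of the 54532 genes and carries counts of the same 6 libraries. Every gene of the lists used here that appears in it has an unadjusted value under 0.05 there. Being listed, and the direction given there, are therefore not independent of the results above.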

How the data were processed

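Poly(A) RNA libraries of 6 samples were grouped by their titles, and table columns were matched by library name. The build was GRCm38, per the submitters' processing notes, which also list featureCounts 1.50-p3, HISAT2 2.05, fastp, DESeq2 1.38.3 and StringTie without roles or settings. The authors deposited FPKM for 54532 genes, and, for 660 genes, their log2 fold changes and p-values beside raw counts and a signal made of counts over a size factor. A further 8 per-library columns match no label and were not used. A table of ontology terms with the authors' p-values was not used. FPKM times gene length came out as whole reads in 100% of values within 0.01, equal to the deposited counts in all 660 genes, and these recovered reads went into edgeR 4.0.16 (quasi-likelihood) and DESeq2 1.42.0.

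Groups were compared two-sided by limma 3.58.1 with a trended prior (R 4.3.3) on log2(FPKM + 0.5). The 12618 genes had at least 0.5 FPKM in at least 3 libraries, and p was adjusted by Benjamini-Hochberg over all of them. Folds are on that scale, which understates changes of low genes. The limma intervals are 95% and unadjusted. The same fit was run on simulated reads with known changes and no difference between library sets. Such reads cannot show how the fit handles the library sets. Deviations of same-numbered libraries correlated at 0.207, -0.141 and 0.211. With 3 libraries per group such values cannot settle whether title numbers pair the samples. The labels do not say so either, and the main fit has no block. The same-letter libraries, A0 with A24 and D0 with D24, correlated at 0.207 and 0.275, and B0 with A24, which share neither number nor letter, at 0.388. Only 2 same-letter pairs exist and the labels do not say what a letter marks, so the letter block is an alternative. Within-set folds are differences of mean log2 values, without a test.

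Named with values, by rule, were members past the threshold in limma (with or without the library set), edgeR or DESeq2, those without overlap, the 4 most abundant and the 3 with the largest change per class. From 5 lists of other matrix genes these were members past the threshold or the 2 most abundant. The members, lists and 7 marker lists were chosen with earlier results of these data known. Alternatives were other pseudocounts, filters, scalings, blocks and tools, the library set as a term and leaving out each library.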

Additional observations from a re-analysis of the deposited data

How the results depend on the processing

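The count of 23 genes past the threshold depended on every library: it was 2 to 8 when 1 library was left out. It was 0 without a filter on low values (limma, 1751 genes at an unadjusted p under 0.05), 15 on a TPM scale, 37 in edgeR, 260 in DESeq2 and 102 with the library set as a term. With a replicate block by title number it was 13. With a replicate block by library letter it was 78 (11 members at an unadjusted p under 0.05 in limma, all lower, none called). Whether numbers or letters pair the libraries is not known. Among the members limma called 0 (7 at an unadjusted p under 0.05), 0 whichever library was left out, 1 with the library set as a term and 6 in DESeq2, and 0 under the other alternatives, edgeR and both blocks included.

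The median log2 fold change of collagens was -0.36 with a filter at 1 FPKM and -0.21 with the letter block, against 0.014, and -0.14 to 0.15 without 1 library. The filter at 1 FPKM removed Col5a1 and changed no other collagen fold. The median then lay midway between Col8a1 (-0.73) and Col4a1 (0.014). The median log2 fold change of laminins and nidogens was -0.16 with the letter block, against -0.017, and -0.11 to 0.14 without 1 library. That of glycoproteins was -0.25 on a TPM scale, against -0.13, and -0.20 to -0.037 without 1 library. On the TPM scale the median of all genes tested moved too, from 0.0023 to -0.080.

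Of 543 log2 fold changes of the 32 members under 17 alternatives, 490 kept their direction and side of the threshold, 7 passed it and 46 changed sign, all of members with adjusted p over 0.05. On a TPM scale Col4a1 was -0.071, Lama3 -0.071 and Hspg2 -0.053, beside a median of -0.080 over all genes tested on that scale. With quantile scaling Col4a1 was -0.12, Col4a2 -0.047 and Hspg2 -0.085. With the library set as a term Col4a1 was -0.11, Col4a2 -0.012, Lama3 -0.015, Nid2 0.059, Hspg2 -0.20, Sparc 0.022 and Bgn -0.012. With the letter block Col4a1 was -0.21, Col4a2 -0.15, Col5a1 -0.084, Col18a1 -0.12, Lama3 -0.15, Lama5 -0.024, Lamc1 -0.057, Hspg2 -0.52, Bgn -0.10 and Mmrn2 -0.0084. For Lama3 it was -0.0010 with a pseudocount of 1, -0.016 in edgeR and -0.018 in DESeq2, against 0.0009.
Without 1 library the ranges that crossed 0 were -0.14 to 0.15 for Col4a1, -0.085 to 0.23 for Col4a2, -0.077 to 0.42 for Col5a1, -0.10 to 0.12 for Lama3, -0.11 to 0.095 for Lamb1, -0.42 to 0.19 for Nid2, -0.32 to 0.35 for Hspg2, -0.048 to 0.044 for Sparc, -0.21 to 0.057 for Tnc and -0.053 to 0.59 for Bgn. The cause of these changes was not tested. With 15 to 20 reads per FPKM and kilobase, members under about 0.5 FPKM rest on few reads.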
